A study of Zingiber officinale with 6 samples.

Results

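Of 55601 annotated ginger genes, 209 set a single control plant, control replicate 3, apart from the 5 other plants of the study. The genes were chosen on their read counts. Each count was divided by the library's total and expressed per 1000000 counts (CPM), and 0.5 CPM was added. The 31299 genes with a mean count of 50 or more over the 6 libraries entered the rule, and a gene was a member when control replicate 3 was over 4 times the highest of the other 5 libraries or under 0.25 of the lowest. There were 56 members higher in control replicate 3, 0.179% of the genes that entered, and 153 lower, 0.489%. Since the levels in control replicate 3 chose the members, these levels are given as a description, with no test. In RNA from whole leaf blades, fewer cells of a kind and less RNA per cell cannot be told apart.

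The libraries came from leaf blades of ginger (Zingiber officinale, Laiwu variety) raised from tissue culture, with 1 library per plant. The 3 plants of the control group stood for 21 days over jars of V8 medium without any organism. The 3 plants of the Po-VOCs group stood for 21 days over jars in which the oomycete Pythium oligandrum strain GAQ1 grew on the same medium, so that its volatile organic compounds reached the roots through the bottom of the pot. Pots, light cycle and temperature were shared by both groups, and whether the plants went back to 1 tissue culture line is not given in the sources used here.

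Ginger is a diploid crop that sets little seed and is propagated from pieces of its rhizome or in tissue culture, so plants of a variety are usually clonal copies. A diploid leaf cell carries each chromosome as a pair of homologous copies. The Zo_v1.1 assembly, on which the reads were counted, lists both copies under the names A and B. A gene on 2B therefore usually has a close counterpart on 2A, and reads that fit both copies equally well cannot be assigned with certainty. No table used here gives a product name for 208 of the 209 members, so they are described by identifier, position and level, and the leaf label could not be checked against marker genes.

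The libraries were of like depth, with total counts between 13695463 and 14662442 and 48697 to 50442 genes with at least 1 count. Counts of replicate plants differed beyond sampling noise (for each pair within a group, chi-square was 23.0 to 49.1 times its degrees of freedom), and no library repeated another. Applied to every library in turn, the same rule found 211 genes in control replicate 1, 6 in control replicate 2, 209 in control replicate 3, and 43, 7 and 126 in the 3 exposed plants in the order of their replicate numbers. The number of genes alone thus did not set control replicate 3 apart, since control replicate 1 had as many. Its genes were of another kind in 2 ways. In control replicate 3, 56 genes lay over the other libraries, against 3 to 17 in the rest, while 205 of the 211 genes of control replicate 1 lay under them. And of the genes under the others, 109 of 153 in control replicate 3 lay in runs on a chromosome, against 27 of 205 in control replicate 1.

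**Figure D1:**
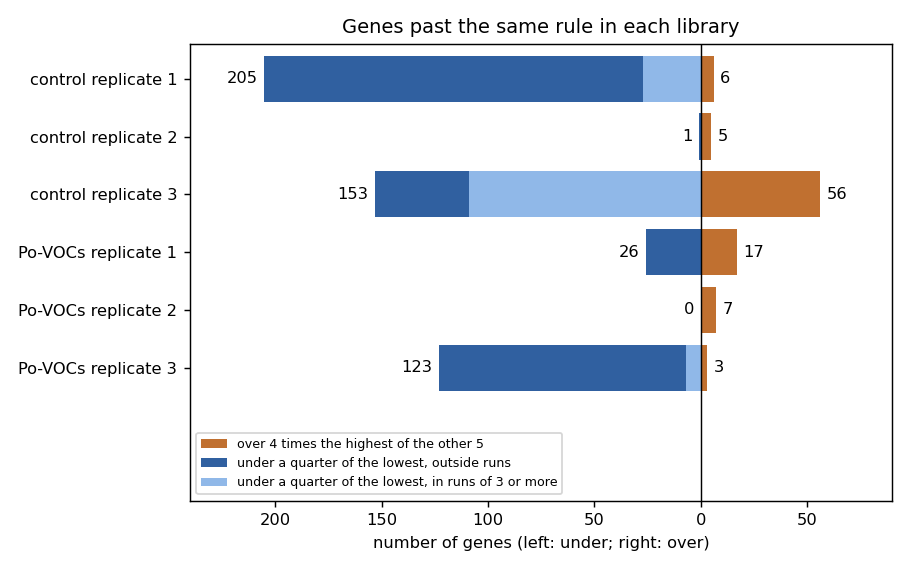
Number of genes past the same rule in each library, with genes under 0.25 of the lowest of the other 5 libraries drawn to the left and genes over 4 times the highest drawn to the right. The pale part of each left bar counts genes in runs of 3 or more on a chromosome: 109 of 153 in control replicate 3, 27 of 205 in control replicate 1 and 7 of 123 in Po-VOCs replicate 3.

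The members lower in control replicate 3 were concentrated in 2 stretches of chromosome. When lower members on a chromosome were chained wherever their starts lay at most 2 Mb apart, 109 of the 153 fell into 2 runs, 91 on chromosome 2B and 18 on chromosome 5B. The runs were looked for after the values had been seen and are described without a test. Under the same chaining the longest run of control replicate 1 and of Po-VOCs replicate 3 held 4 genes. Up to 20 members followed each other with no other gene of the count minimum between them, against at most 2 in any other library.

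The run on chromosome 2B lay at 2B:143544346-149569434 (Zo_v1.1), a length of 6025089 bp with 236 annotated genes, of which 121 met the count minimum. Its 91 members had 28506 and 31351 counts in control replicates 1 and 2, 320 in control replicate 3, and 37313, 39100 and 39624 in the Po-VOCs plants. The sum in control replicate 3 was 0.91% of the mean of the other 5 libraries after scaling to depth, and 38 of the 91 members had no count there. The sums of the other 5 libraries lay between 81.7% and 113% of their mean.

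The genes of this stretch under the count minimum were low in the same plant. That minimum was a mean over all 6 libraries, so a low level in control replicate 3 helped to put a gene under it. The stretch was also bounded by its low members, so these values are a description. The 115 genes under the count minimum had 1298 and 1688 counts in control replicates 1 and 2, 141 in control replicate 3, and 2132, 2070 and 1802 in the Po-VOCs plants. Control replicate 3 thus had 7.85% of the mean of the others, and 21 of the 115 genes were detected there against 89 to 98 elsewhere. The 20 genes on the flanks of the run, 10 on either side, together had 113% of the mean of the others in control replicate 3. The other 5 libraries lay between 91.0% and 110% of that mean. Single flanking genes in control replicate 3 ranged from -2.41 to 2.23 on the log2 scale against the median of the others. The lowest of them, LOC122047801, was lower still in control replicates 1 and 2, at -3.14 and -3.15 on the same scale.

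The run on 2B was broken by a stretch of 21 consecutive genes that were not members, at 2B:144914241-145418430. Before it, 36 of 41 genes with the count minimum were members, and after it 55 of 59. The 21 genes had 12465, 13063 and 8231 counts in control replicates 1, 2 and 3 and 12372, 11459 and 11422 in the Po-VOCs plants. They were moderately low rather than nearly silent in control replicate 3, which was the lowest library for 16 of the 21, with a median level of 58.6% of the median of the others. This stretch stands out in the profile along 2B as a plateau between both blocks of members.

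On chromosome 5B the run lay at 5B:34130417-40354849, spanning 6224433 bp but only 34 annotated genes. All 18 genes that met the count minimum were members. Together they had 7454 and 7190 counts in control replicates 1 and 2, 102 in control replicate 3, and 5513, 5191 and 5341 in the Po-VOCs plants, so that control replicate 3 had 1.66% of the mean of the others. In 9 of the 18 genes it had no count. The 16 genes under the count minimum had 120 and 209 counts in control replicates 1 and 2, 3 in control replicate 3, and 166, 144 and 181 in the Po-VOCs plants. The 20 flanking genes had 104% of the mean of the others.

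**Figure D2:**
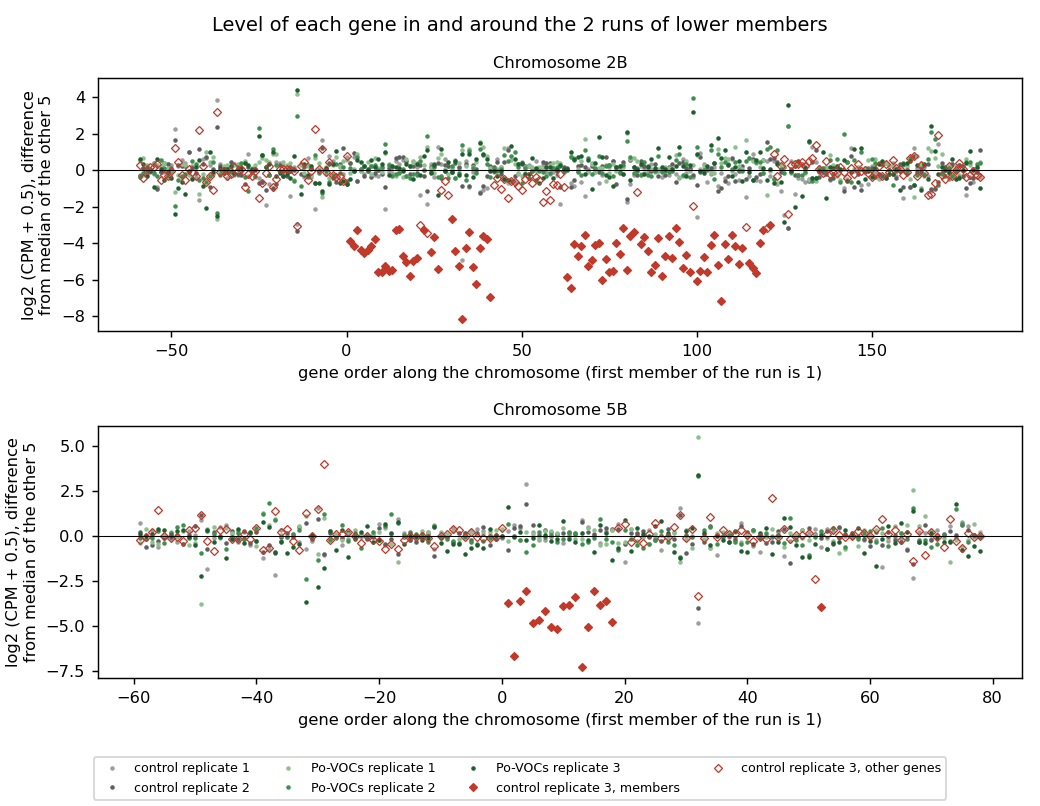
Level of each gene with the count minimum along chromosomes 2B and 5B, as log2 of CPM plus 0.5 minus the median of the other 5 libraries, against the order of genes with the first member of the run at 1. Diamonds are control replicate 3 (filled for members) and dots are the other 5 libraries. On 2B the diamonds drop in 2 blocks separated by 21 genes, on 5B in 1 block of 18 genes. Beyond the runs most diamonds lie near the other plants. Exceptions on 2B include LOC122047519 at 2.23. Those on 5B include LOC121987454, a lower member outside the run, at -3.92, LOC121984465 at -2.38 and LOC121984268 at 3.99.

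To see whether other stretches behaved in this way, the chromosomes were divided into 1215 windows of 25 neighbouring genes, and the median level of each window in a library was set against the median of the other 5. In control replicate 3, 6 windows lay below -1 on the log2 scale, 5 on 2B and 1 on 5B, with the lowest at -4.58. No window of another library lay below -0.68. The highest window of control replicate 3 was at 0.48, and no stretch was raised in the way these were lowered. On 2A and 5A, the chromosomes paired by name with 2B and 5B, the windows of control replicate 3 lay between -0.26 and 0.22 and between -0.22 and 0.39. Which genes of 2A and 5A are the counterparts of the runs was not determined. The DNA of the plants was not measured, and whether a difference in DNA, in chromatin or in read assignment goes with the runs was not tested.

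**Figure D3:**
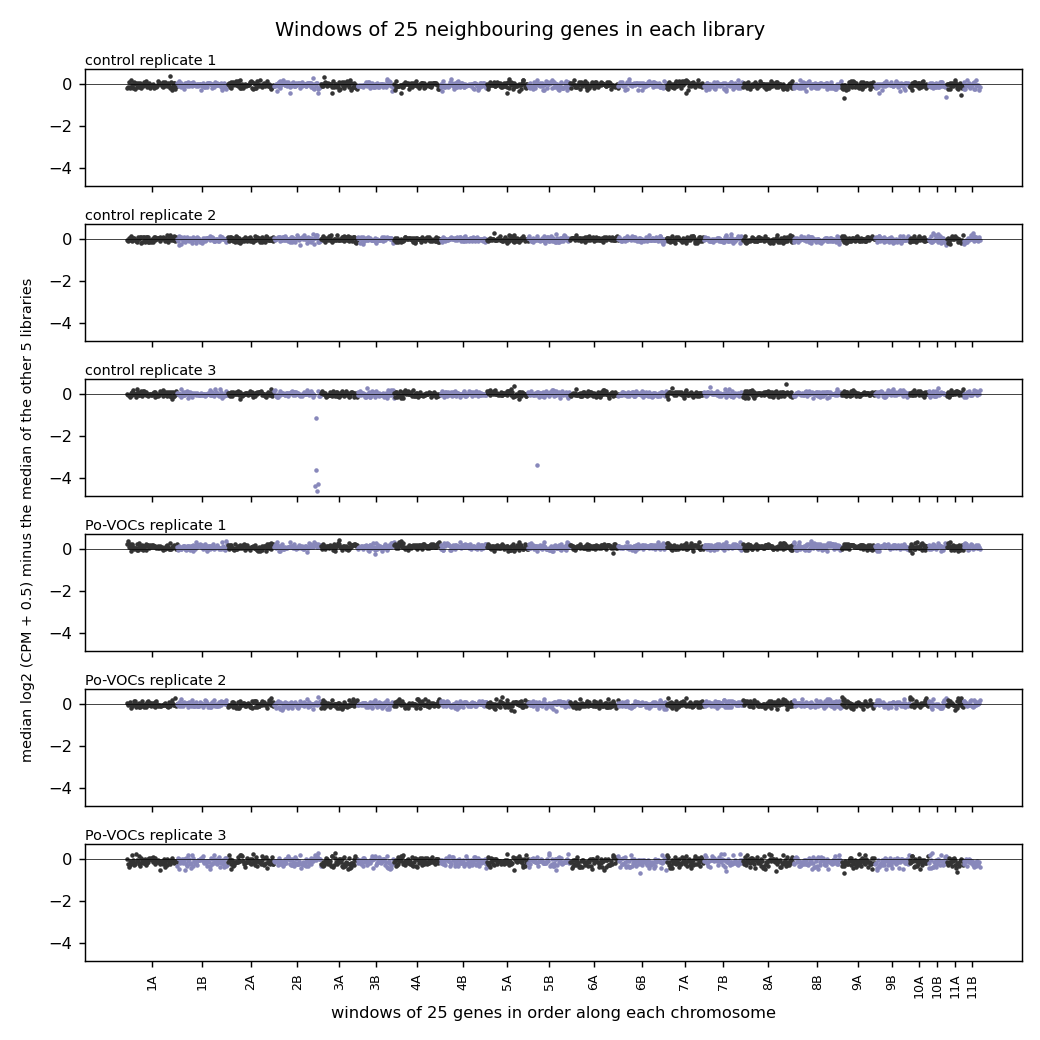
Median log2 level of each window of 25 neighbouring genes in a library minus the median of the other 5 libraries, for all 22 chromosomes in order, 1 panel per library and alternating colours for chromosomes. Apart from 6 windows on 2B and 5B in control replicate 3, which reach -4.58, all windows lie between -0.68 and 0.48.

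Ranked on CPM plus 0.5, the scale of the rule, the single member with the largest ratio was LOC121984359 in the run on 5B (5B:37316635-37318070), at 116-fold. With so few counts in control replicate 3 the order depends on that added 0.5. It had 2359 and 2167 counts in control replicates 1 and 2, 2 in control replicate 3, and 1208, 1084 and 1385 in the Po-VOCs plants. Every other plant was thus far above control replicate 3, and Po-VOCs replicate 2, the nearest, was 522.5-fold higher on plain CPM, with an exact interval at 95% of 144 to 4320 for counting error. In the same run LOC121984343 (5B:35250468-35252838) had 1219, 1122 and 1 counts in the controls and 783, 839 and 775 in the Po-VOCs plants. Its ratio on plain CPM was larger, 780-fold, with an interval of 140 to 30836.5 that spans that of LOC121984359.

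In the run on 2B the largest ratio was that of LOC122047622 (2B:144783683-144787403), with 856 and 972 counts in control replicates 1 and 2, 0 in control replicate 3, and 889, 699 and 825 in the Po-VOCs plants. With 3 counts taken as the upper limit that a count of 0 allows, control replicate 3 was at least 225-fold lower than the lowest of the other plants. LOC122047615 (2B:144740436-144742825) had 501, 536 and 0 counts in the controls and 659, 493 and 782 in the Po-VOCs plants, at least 158-fold lower by the same reckoning. Both genes were at a like level in the other 5 plants.

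A few members of this run kept a low but countable level in control replicate 3. LOC122047755 (2B:148532650-148535911) had 2948, 1659 and 16 counts in the controls and 3832, 3408 and 4633 in the Po-VOCs plants. LOC122047658 (2B:145471218-145491792), the first member after the inner stretch, had 1436, 1622 and 18 counts in the controls and 1406, 1520 and 1529 in the Po-VOCs plants, an even level in all plants but 1. By contrast, LOC122047607 (2B:144605286-144606953) varied widely among the other plants. It had 192, 3306 and 14 counts in the controls and 6925, 8927 and 6034 in the Po-VOCs plants, so control replicate 1 was itself far below the rest.

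The other 44 lower members lay on 16 chromosomes, 3 of them on 2B and 4 on 5B outside the runs. Of these, 12 formed 6 pairs of neighbours and 32 stood alone. They summed to 24654 and 23676 counts in control replicates 1 and 2, 1898 in control replicate 3, and 21732, 21490 and 20023 in the Po-VOCs plants, and 10 of the 44 had no count in control replicate 3. LOC122033483 (1A:130966303-130970445) alone accounted for 1529 of the 1898 counts. It was the most abundant of the 3 lower members named for their level, with 10665 and 9803 counts in control replicates 1 and 2 and 6572, 7207 and 8213 in the Po-VOCs plants.

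Some genes outside the runs were as nearly silent as those inside. LOC122032369 (11A:94753374-94755848) had 814, 704 and 0 counts in the controls and 717, 609 and 758 in the Po-VOCs plants, at least 196-fold lower in control replicate 3 than in any other plant. LOC122015069 (8B:66469271-66473777) had 1224, 1014 and 8 counts in the controls and 1526, 1498 and 1226 in the Po-VOCs plants. Its neighbour 57044 bp away was also a member.

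The pairs are members that lie next to each other, so both genes of a pair are low in control replicate 3 by the rule. On 10B, LOC122028742 (10B:23425320-23441067) had 273, 264 and 2 counts in the controls and 325, 200 and 140 in the Po-VOCs plants, and LOC122028744, which starts 625 bp further on, had 169, 177 and 1 and then 214, 152 and 185. On 11B, LOC122033597 had 133, 243 and 3 counts in the controls and 226, 309 and 202 in the Po-VOCs plants, and LOC122034071, 1518 bp away, had 49, 116 and 0 and then 186, 287 and 197. In the second pair control replicate 1 was also the lowest of the remaining plants for both genes.

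On 2A, LOC122041407 and LOC122041406, 99 bp apart, had 5 and 53 counts in control replicate 3, while no other plant was below 232 and 674. LOC121996295 and LOC121996294 on 6A overlap each other, so their counts may share reads. They had 1 and 6 counts in control replicate 3 and at least 317 and 80 in the other plants.

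The 56 members higher in control replicate 3 showed no such order. They were spread over 20 chromosomes and unplaced sequence, with 8 on 5B and 6 on 5A, no 2 of them were consecutive among genes with the count minimum, and they formed no run. They summed to 2892 and 4863 counts in control replicates 1 and 2, 50515 in control replicate 3, and 3884, 6842 and 3399 in the Po-VOCs plants. In the other plants they were weakly expressed genes, with a median CPM of 2.72 against 14.1 over all genes with the minimum and 15.01 for the lower members. A gene low in 5 plants could meet the count minimum through control replicate 3 alone.

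The ratios of the higher members were smaller than those of the lower ones. On the scale of CPM plus 0.5, 9 of the 56 higher members were beyond 10-fold and none beyond 50-fold, while 104 of the 153 lower members were beyond 10-fold and 9 beyond 50-fold. The largest was LOC121994495 (6A:140176323-140178171), 24.8-fold over the nearest plant, with 26, 10 and 817 counts in the controls and 2, 2 and 10 in the Po-VOCs plants. LOC121986162 (5B:135237811-135239951) had 0, 1 and 471 counts in the controls and 12, 7 and 0 in the Po-VOCs plants. Both genes were close to silent in every plant but control replicate 3.

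Other higher members had a clear level in all plants. LOC121984069 (5B:8228314-8232685) had 94, 218 and 2723 counts in the controls and 85, 198 and 60 in the Po-VOCs plants. LOC121989283 (6B:120554631-120578913) was nearly even elsewhere, with 251, 219 and 3161 counts in the controls and 271, 260 and 270 in the Po-VOCs plants. It was thus 11.05-fold over the nearest plant, with hardly any spread among the other 5 (18.0 ± 1.73 CPM, SD, n = 5, against 224 CPM in control replicate 3).

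The highest levels in control replicate 3 belonged to a pair of genes on chromosomes 2A and 2B. LOC122041497 (2A:90590547-90591894) had 9, 58 and 5110 counts in the controls and 104, 659 and 53 in the Po-VOCs plants. LOC122046004 (2B:80338645-80339976) had 11, 66 and 4907 counts in the controls and 136, 751 and 57 in the Po-VOCs plants. The 6 plants stood in the same order for both genes, with Po-VOCs replicate 2 next below control replicate 3 and control replicate 1 lowest. Whether they are counterparts that share reads was not tested. LOC122015582 (8B:88304186-88306064), the third by level, had 813, 1140 and 4715 counts in the controls and 672, 1136 and 1120 in the Po-VOCs plants.

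**Figure D4:**
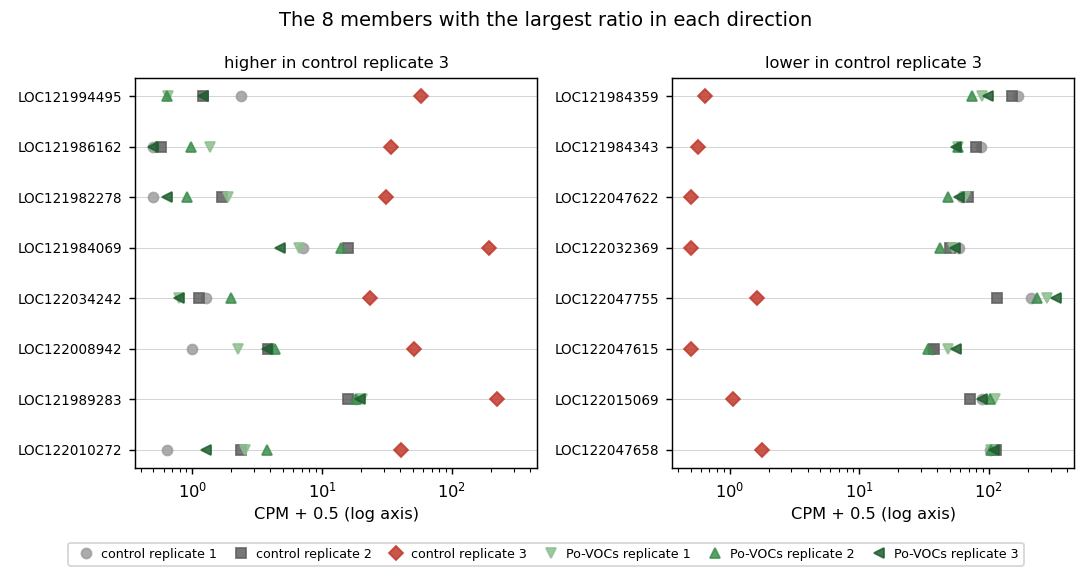
Level in each of the 6 libraries, as CPM plus 0.5 on a log axis, of the 8 members with the largest ratio in each direction. The red diamond of control replicate 3 lies to the right of the other 5 symbols on the left and to their left on the right, with 224 CPM for LOC121989283 and 0 for LOC122047622.

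Among the other 5 plants the higher members were uneven. The ratio of the highest to the lowest of these plants, on CPM plus 0.5, had a median of 3.97, at a level too low to be set against the better expressed lower members or genes at large. Control replicate 1 was the lowest plant for 24 of the 56 and Po-VOCs replicate 3 for 23, against 3 each for control replicate 2, Po-VOCs replicate 1 and Po-VOCs replicate 2. Both of these plants together were the lowest pair in 27 of the 56 higher members, or 48.2%. The share was 7.84% of the lower members and 15.5% of all genes with the minimum, which are better expressed. No set of genes at a like level was compared, so these shares do not show a trait of the higher members. Control replicate 1 and Po-VOCs replicate 3 are also the plants with the longest lists of genes under the others, and the part of this in the higher members was not tested. Only 1 pair of higher members were near neighbours, LOC122049704 and LOC122049706 on 2B, 106220 bp apart, with 672 and 225 counts in control replicate 3.

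Gene structure also differed between both kinds of members. The rule did not use it directly, but the higher members were weakly expressed in the other plants. No genes of a like level were compared, so the values are a description. The median span of a higher member on the chromosome was 1972 bp, against 5399 bp for the lower members and 4685 bp for all genes with the minimum. The length on which the FPKM values rest was alike, with medians of 1659, 1712 and 1733 bp. More than 1 annotated protein was listed for 17.9% of the higher members, 36.6% of the lower members and 36.3% of all genes with the minimum. All 209 members are annotated as protein coding.

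Near the thresholds, LOC121984224 (4.04-fold) and LOC122036774 (4.11-fold) were just inside on the higher side, and LOC122012531 (3.99-fold) and LOC121967943 (3.93-fold) just outside. On the lower side LOC122047669 (4.25-fold) and LOC122033483 (4.42-fold) were just inside, and LOC121970590 (3.91-fold) and LOC122054734 (3.82-fold) just outside. LOC122054734 had 66, 55 and 9 counts in the controls and 215, 270 and 82 in the Po-VOCs plants. It ends 4 bp before LOC122056108 on 3B, a member described below for another reason.

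The question of the study, whether exposure to Po-VOCs changed the level of a gene, was put to the members without control replicate 3. The other 5 libraries also entered the rule, as the highest or lowest level that control replicate 3 was set against and in the count minimum. A lower member therefore had to be detected in all 5, though not at a high level. For example, LOC122047669 had 27 counts in control replicate 1. The rule did not use which of the 5 libraries were exposed. With edgeR's quasi-likelihood test on 42583 genes, Po-VOCs against control replicates 1 and 2, a gene was called at a Benjamini-Hochberg adjusted p below 0.05, a log2 fold change beyond 1 in size and, in the group where it was higher, a mean FPKM over 1. Of the 208 members tested, 3 were called higher in Po-VOCs, where 0.989% of all genes tested were called, and 1 was called lower, where 1.48% were called. An unadjusted p below 0.05 was found for 42 of the 208, a share near the 20.3% of all genes tested. The levels of exposed and unexposed plants did not overlap, with the exposed plants higher, in 38 of the 208 against 21.4% of all genes, and with the exposed plants lower in 36 against 18.1%. Because the rule bounds these 5 libraries from one side, the shares are set beside each other as a description.

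All 4 called members belonged to the genes lower in control replicate 3. The gene with the largest rise was LOC122056108 (3B:20804883-20807053), the single member with a product name here, a G-type lectin S-receptor-like serine/threonine-protein kinase with an S-locus glycoprotein, a PAN-like and a protein kinase domain. Kinases of this family sit in the plasma membrane, and some are known from Arabidopsis and rice to take part in defence and stress responses. It had 187 and 172 counts in control replicates 1 and 2, 29 in control replicate 3, and 586, 1021 and 838 in the Po-VOCs plants, and its log2 fold change was 2.16 ± 0.31 (SE, edgeR adjusted p = 0.0301). Its level in control replicate 3 was thus on the far side of the controls from the exposed plants.

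Another pair of called genes lay in the run on 2B. LOC122047684 (2B:146147135-146153436) had 98, 113 and 1 counts in the controls and 462, 366 and 487 in the Po-VOCs plants, and its log2 fold change without control replicate 3 was 2.04 ± 0.26 (SE, edgeR adjusted p = 0.0241). LOC122047617 (2B:144757896-144760620) had 53, 52 and 0 counts in the controls and 161, 135 and 159 in the Po-VOCs plants, with a log2 fold change of 1.51 ± 0.26 (SE, edgeR adjusted p = 0.0427). In both genes all 3 exposed plants lay above both remaining controls, which were close to each other.

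The 1 member called lower was LOC121984345 (5B:35605812-35610618) in the run on 5B. It had 369 and 169 counts in control replicates 1 and 2, 0 in control replicate 3, and 50, 26 and 43 in the Po-VOCs plants. The log2 fold change was -2.79 ± 0.45 (SE, edgeR adjusted p = 0.0366). Here control replicate 3 was below the exposed plants, while the other controls were above them.

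None of the 55 higher members tested was called by edgeR (lowest adjusted p = 0.0560), although 8 had an unadjusted p below 0.05, and DESeq2 called 3 higher and 2 lower in Po-VOCs among 56, where it called 4.05% and 3.12% of all genes. Their median log2 fold change between the groups was 0.18, with quartiles of -0.28 and 0.84. The median over the lower members was 0.07, with quartiles of -0.28 and 0.41, and over all genes tested 0.03. With 2 control plants the calls rested on few libraries. With a further control left out only 1 control plant remains, so no calls are given for that setting. Without Po-VOCs replicate 1, edgeR called 6 members higher and 2 lower, where it called 2.75% and 1.90% of all genes. Without Po-VOCs replicate 2 it called 0 members, where it called 0.0336% of all genes higher and 0.0383% lower. Without Po-VOCs replicate 3 it also called 0 members, against 0.0831% and 0.116% of all genes. The calls of members thus moved with those over all genes.

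With control replicate 3 included, the comparison of the groups looked different for these genes, and for the members this is a description, since that library chose them. Across 3 controls and 3 exposed plants edgeR called 0 of the members, against 1.09% of all genes tested higher and 1.02% lower in Po-VOCs. An unadjusted edgeR p below 0.05 was found for 16 of 208 members, against 8392 of 41508 genes tested. By the rule, control replicate 3 was far from the other controls for every member. DESeq2 called 1 higher and 5 lower, where it called 3.57% and 3.01% of all genes. Its 1 higher call was among the 44 lower members outside the runs, and its 5 lower calls were among the higher members. No lower member in the runs was called by DESeq2. The 4 genes named above were no longer called by edgeR. Their edgeR adjusted p was 0.0787 for LOC122056108, 0.177 for LOC122047684, 0.267 for LOC122047617 and 0.384 for LOC121984345. Their log2 fold changes with all 6 libraries were 2.64, 2.63, 2.10 and -2.20, larger in size than without control replicate 3 for the first 3 genes and smaller for the last. LOC122056108 is also listed in the study's supplementary table of genes raised in Po-VOCs. The study's own test was DESeq2 on 3 control and 3 exposed plants, so the loss of this gene's call is that of edgeR.

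Adding control replicate 3 moved the estimates of the members in a direction that the rule had fixed. A control plant with almost no counts lowers the mean of the 3 controls by a nearly fixed share, and a plant far above the rest raises it. The log2 fold change of the lower members between the groups moved by 0.48 to 0.59, with a median of 0.58. Their median SE went from 0.26 to 1.02. For the higher members the move had a median of -2.32 and ranged from -5.66 to -1.09, so that all 55 then had a negative log2 fold change, where 32 had been positive. Over all genes tested the median move was 0.01.

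**Figure D5:**
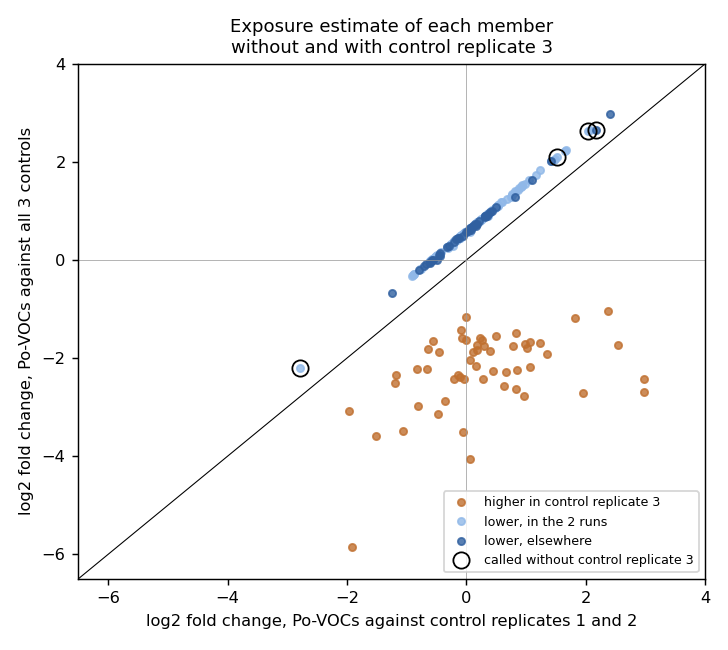
Log2 fold change of each member between Po-VOCs and control plants, without control replicate 3 on the horizontal axis and with it on the vertical axis, with the line of equal values. Lower members, in 2 shades of blue, lie along a line about 0.58 above it, higher members, in orange, lie below it by 1.09 to 5.66, and rings mark the 4 members called without control replicate 3. The rule that chose the members fixed the direction of both moves.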

How the data were processed

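RNA-seq of leaf blades from 3 control and 3 Po-VOCs ginger plants at 21 days was used, 1 library per plant, with groups from the sample labels. The authors trimmed the reads with Trimmomatic, mapped them with HISAT2 to Zo_v1.1 and counted them per RefSeq gene with HTSeq, and the deposited counts are not normalized. The deposited FPKM values, attributed by the authors to Cufflinks, equalled the count divided by gene length and library total within 0.1% for all 299269 values above 0. Which versions, HTSeq mode and strand option were used is not given in the sources used here. Genes with near-identical copies are therefore uncertain.

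The members and lists were chosen with earlier results of these data known. The count test was edgeR 4.0.16 in R 4.3.3 (filterByExpr, TMM, quasi-likelihood test, no covariate, Benjamini-Hochberg over all genes tested), and the code was tested on simulated data. The SE of a log2 fold change is its size over the square root of F. DESeq2 1.42.0 and limma 3.58.1 (log2 of FPKM plus 1 or 0.1) served for alternatives. Named genes are the 8 largest ratios in each direction, the 3 highest levels in each direction, those nearest the threshold, the called members, members with a product name and up to 5 pairs of neighbours. Of the 8 largest higher ratios, 4 are described in full and the rest are drawn. Exact intervals and the limit of 3 counts for a count of 0 cover counting error only. Positions are those of the RefSeq annotation of Zo_v1.1. Product names come from the 1517 rows held of a supplementary table that lists genes raised in Po-VOCs. Gene groups by product name and promoter motifs had been planned and were not run, and no sequences are shown, since no table used here holds them. Alternatives covered the scaling, the offset, the count minimum, the fold, each library left out, the count model and filter, the replicate number as a block and the thresholds for a call. The distance that defines a run was varied after the data had been seen.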

Additional observations from a re-analysis of the deposited data

How the results depend on the processing

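The 153 lower members stayed within 1.5 times that number in every alternative, from 110 to 181, and 107 to 112 lower members lay in the runs on 2B and 5B when the distance (1 or 5 Mb) or scaling was changed or a library left out, alternatives chosen after seeing the data. The 56 higher members depended more on the settings. They numbered 99 and 29 at a mean count of 20 and 100 or more, 93 and 29 at 3-fold and 6-fold, and 61 to 76 with 1 of the other libraries left out. With control replicate 1 and Po-VOCs replicate 3 both left out, a choice made after seeing the data, there were 68 higher and 165 lower genes, which held all 56 and all 153 members. Of members called between the groups, 3 higher and 1 lower in Po-VOCs by edgeR, DESeq2 gave 13 and 3 (4.05% and 3.12% of all genes), an adjusted p below 0.1 gave 9 and 1 (2.69% and 2.87%), and all 6 libraries gave 0 and 0 (1.09% and 1.02%). Leaving out single exposed plants gave 0 to 6 higher (0.0336% to 2.75% of all genes) and 0 to 2 lower (0.0383% to 1.9%). Where 1 control was left, the lone sample was assumed to vary like the exposed plants, and no counts are given. For the 4 called members, the alternatives with at least 2 controls were DESeq2, no TMM, the replicate block, each exposed plant left out and all 6 libraries. Over these the adjusted p ranged from 1.09e-07 to 0.0943 for LOC122056108 and from 3.26e-08 to 0.177 for LOC122047684. It ranged from 0.000681 to 0.267 for LOC122047617 and from 5.62e-06 to 0.384 for LOC121984345. In this order of genes it was below 0.05 in 3, 3, 2 and 4 of these alternatives, and no sign changed. With the replicate number as a block, 2 members were called higher and 1 lower without control replicate 3 (0.214% and 0.228% of all genes), and 0 and 0 with all 6 libraries (0.157% and 0.171%). The 2 were LOC122041497 and LOC122046004, while none of the 3 called higher without the block kept its call and LOC121984345 did. Same-numbered plants share only a number. Their deviations from the group means correlated at -0.02, 0.02 and -0.10 across 41508 genes, and no control plant correlated best with the exposed plant of its own number. Genes are not independent, so these values are a description.

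With 1 library per plant and 3 plants per group, a difference confined to 1 plant has no replicate, and no second library of control replicate 3 was analysed here. Counts of 3 or fewer, found in control replicate 3 for 110 of the 153 lower members, cannot separate silence from a very low level at this depth.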
